A study of Mus musculus with 10 samples.

Results

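The genes described here are those of Notch signaling: 4 receptors (Notch1, Notch2, Notch3 and Notch4), 3 ligands (Dll4, Jag1 and Jag2) and 3 target genes (Hes1, Hey1 and Heyl). They were chosen by gene symbol, with earlier results of these data known. Each of the 10 symbols matched 1 of the 24470 entries of the count table. The study asked what the fetal mouse testis does when glycogen cannot be broken down. Both gonads of 5 male C57BL/6 embryos were taken at E12.5 with the mesonephros attached, and the 2 groups were 5 gonads cultured with 75 µM of CP 316819, an inhibitor of glycogen phosphorylase (GPI), and the 5 contralateral gonads cultured with DMSO as vehicle. Culture lasted 48 h, after which the mesonephros was cut away and RNA of all cells of the gonad was amplified and sequenced together. The labels name no transgene or mutation in either group.

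In Notch signaling, a ligand on one cell binds a receptor on its neighbor. The receptor is then cut, first by ADAM10 and then by gamma-secretase, and its freed intracellular domain joins RBPJ in the nucleus to switch on repressors of the HES and HEY families. In blood vessels the pathway governs the choice between artery and vein and the recruitment of mural cells, and in the fetal testis it is known for keeping interstitial progenitors from becoming Leydig cells.

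Libraries held 10203679 to 15635322 counts. Values below are normalized counts, that is, counts divided by the library's effective size after TMM scaling and multiplied by the mean effective size. Groups were compared with edgeR's quasi-likelihood test with the embryo as a block, and a gene was called at an FDR of 0.05 over all 13941 genes that passed a filter on low counts; each of the 10 Notch genes passed it. As a check on the dissection, 4 markers of mesonephric tubules (Pax2, Pax8, Cdh16 and Lhx1), led by Pax8, summed to 557, 119, 270.2, 137.5 and 59.4 normalized counts in the vehicle testes of embryos 1 to 5 and to 177, 226, 114, 109 and 94.8 in their GPI testes. The vehicle testis of embryo 1 was highest, the groups overlapped, and Pax8, the 1 of the 4 that passed the filter, was not called (adjusted p = 0.526). Without embryo 1, the same 9 Notch genes were called as with it.

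GPI-treated testes had lower levels of most Notch genes. Of the 10, 9 were downregulated and 0 upregulated with edgeR, and all 10 estimates were below 0 there and with DESeq2 and limma-voom, while 11.9% of all tested genes were downregulated and 11.1% upregulated. The same 9 had every GPI library below every vehicle library, as did 9.04% of all tested genes. The median log2 fold change of the 10 was -1.69, against 0.019 over all tested genes, and the summed normalized counts of the 10 averaged 9329 in vehicle testes (SD 445, n = 5) and 4775 in GPI testes (SD 389, n = 5). Because the 10 genes were chosen with earlier results of these data known, the shares over all tested genes are given as a description only. In whole gonads, fewer cells of a type and less RNA per cell cannot be told apart.

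**Figure D1:**
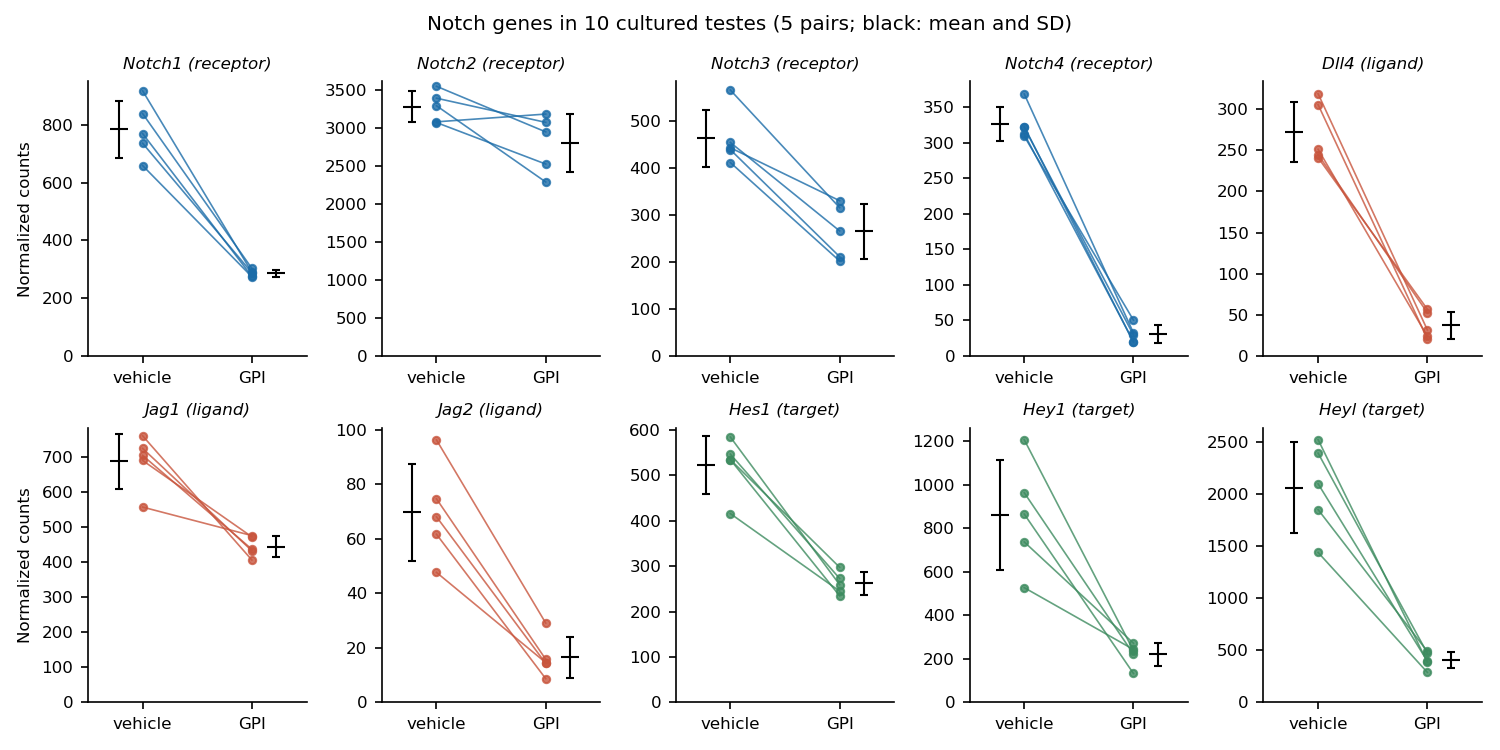
Normalized counts (vertical axes, from 0) of the 10 Notch genes in vehicle and GPI testes; each line joins the gonads of 1 embryo, and black bars give the mean and SD of 5. The groups are apart for 9 genes and overlap for Notch2, whose GPI libraries reach 3184.5 against a lowest vehicle value of 3073.

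Among the receptors, Notch4 fell furthest. Notch4 (Entrez Gene 18132, chromosome 17 from 34564295 to 34588543, plus strand, mm10) is a receptor found mainly on endothelial cells. It had 312, 309, 368.5, 323 and 321.5 normalized counts in the vehicle testes of embryos 1 to 5 and 20.1, 50.3, 32.3, 18.9 and 29.4 in their GPI testes. The vehicle testis of embryo 3 stood above the other 4, and the highest GPI testis, that of embryo 2, was far below all 5. The log2 fold change was -3.45 (standard error 0.20, adjusted p = 7.14e-08), which left 9.2% of the vehicle mean.

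Notch1 (Entrez Gene 18128, chromosome 2 from 26457902 to 26503822, minus strand) is a receptor of many cell types, endothelium among them. Its normalized counts were 769.6, 918, 659, 839 and 736 with vehicle and 275, 289, 274, 303 and 288 with GPI. The GPI testes were nearly level (286 ± 11.9, SD, n = 5) while the vehicle testes spread more (784 ± 98.8, SD, n = 5), and the groups did not overlap. Notch1 fell by 1.45 on the log2 scale (standard error 0.09, adjusted p = 1.68e-07, edgeR). Its entry spans Mir6996 on the same strand, whose reads cannot be separated from its own.

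Notch3 (Entrez Gene 18131, chromosome 17 from 32120893 to 32166852, minus strand) marks pericytes and smooth muscle cells of vessels. It had 443, 566, 439, 411 and 454 normalized counts with vehicle and 330.2, 315, 211, 202 and 266 with GPI. Embryo 2 was the highest with vehicle and embryo 1 the highest with GPI, and no GPI testis reached a vehicle testis. The change was -0.82 on the log2 scale (standard error 0.11, adjusted p = 1.39e-04), from -1.05 to -0.42 in single embryos.

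Notch2 (Entrez Gene 18129, chromosome 3 from 98013538 to 98150367, plus strand) is a receptor expressed in many mesenchymal and epithelial cells. It had 3294, 3082, 3393.5, 3073 and 3550.3 normalized counts with vehicle and 2289.9, 3184.5, 3075, 2526 and 2949.6 with GPI. The groups overlapped: the GPI testes of embryos 2 and 3 stood above the lowest vehicle testis, and embryo 2 had more with GPI than with vehicle. At -0.23 on the log2 scale (standard error 0.08, adjusted p = 0.0541), Notch2 was the 1 Notch gene that did not pass the threshold. This call rested on the setting, since Notch2 passed with DESeq2 (-0.24), with limma-voom (-0.23), under other scaling or filtering, and without embryo 2 (-0.30).

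How far the 4 receptors moved was compared within embryos. The log2 ratio of GPI to vehicle was lower for Notch4 than for Notch2 by a mean of 3.20 (SD 0.38, n = 5 embryos), than for Notch3 by 2.61 (SD 0.62) and than for Notch1 by 1.99 (SD 0.63), in 5 of 5 embryos each. Each of these gave p = 0.0625 in an exact two-sided sign-flip permutation test. That is the smallest p that 5 pairs allow, so none of the 12 differences computed within roles could pass 0.05. Notch1 was below Notch2 by 1.21 (SD 0.29) and below Notch3 by 0.62 (SD 0.33), again in 5 of 5 embryos, and Notch3 was below Notch2 by 0.59 (SD 0.42) in 4 of 5.

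Of the ligands, Dll4 fell most. Dll4 (Entrez Gene 54485, chromosome 2 from 119325784 to 119335666, plus strand) is the ligand of arterial endothelium and of sprouting tip cells. It had 245, 241, 251, 319 and 305.5 normalized counts with vehicle and 52.6, 56.8, 23.8, 31.6 and 20.7 with GPI. The GPI testes of embryos 1 and 2 kept more than the other 3, and all 5 were far below the vehicle testes. The log2 fold change was -2.91 (standard error 0.25, adjusted p = 1.67e-06), with 13.6% of the vehicle mean left. The entry overlaps Gm14207 on the other strand, and reads were counted without regard to strand.

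Jag2 (Entrez Gene 16450, chromosome 12 from 112908590 to 112929495, minus strand), a second ligand of the Jagged type, was the scarcest of the 10. Its normalized counts were 96.3, 47.7, 68.1, 74.7 and 61.7 with vehicle and 29.1, 14.6, 14.3, 15.8 and 8.7 with GPI. Embryo 1 was highest in both groups, and the groups did not overlap. Jag2 fell by 2.11 on the log2 scale (standard error 0.28, adjusted p = 1.01e-04, edgeR), a value that rests on 8 to 26 counts per GPI library. Its entry spans Mir6941 on the same strand.

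Jag1 (Entrez Gene 16449, chromosome 2 from 137081451 to 137116520, minus strand) is a ligand made by endothelial, mural and other cells. It had 761, 557, 725, 690.3 and 705 normalized counts with vehicle and 406, 476, 433, 472 and 437 with GPI. The vehicle testis of embryo 2 was low for its group but still above every GPI testis. The log2 fold change was -0.62 (standard error 0.10, adjusted p = 6.37e-04). In the embryos, Dll4 fell further than Jag1 by 2.29 on the log2 scale (SD 0.73) and further than Jag2 by 0.90 (SD 0.38), and Jag2 further than Jag1 by 1.39 (SD 0.41), each in 5 of 5 embryos (exact sign-flip p = 0.0625).

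All 3 target genes were downregulated. Heyl (Entrez Gene 56198, chromosome 4 from 123233556 to 123249870, plus strand) encodes a HEY repressor that is a target of NOTCH3 in mural cells. It had 1442, 2526, 2102, 2396.5 and 1854 normalized counts with vehicle and 289, 386, 396, 472 and 490.3 with GPI. The vehicle testis of embryo 1 was lowest in its group and its GPI testis lowest in the other, with a wide gap between groups. Heyl fell by 2.34 on the log2 scale (standard error 0.10), and its adjusted p of 5.70e-09 (edgeR) was the smallest among the 10 genes.

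Hey1 (Entrez Gene 15213, chromosome 3 from 8663359 to 8667038, minus strand) encodes a HEY repressor that acts in arterial endothelium. Its normalized counts were 737.5, 527, 964, 1207 and 865.5 with vehicle and 272, 243, 222, 238 and 133 with GPI. The vehicle testes varied widely, and even the lowest of them, that of embryo 2, exceeded every GPI testis. The change was -1.94 on the log2 scale (standard error 0.19, adjusted p = 5.36e-06), from -2.68 to -1.11 in single embryos.

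Hes1 (Entrez Gene 15205, chromosome 16 from 30065357 to 30067796, plus strand) encodes a repressor that answers Notch in many tissues and is also driven by other signals. It had 547, 585, 535, 535 and 416 normalized counts with vehicle and 273, 259, 235, 298 and 245 with GPI. Embryo 5 was low with vehicle, and the groups stayed apart. Hes1 fell by 0.99 on the log2 scale (standard error 0.10, adjusted p = 1.21e-05), to 50.1% of the vehicle mean. Heyl fell further than Hes1 by 1.35 (SD 0.17) in 5 of 5 embryos (exact sign-flip p = 0.0625), whereas Hey1 fell further than Hes1 by 0.95 (SD 0.79) in 4 of 5 (exact p = 0.125) and Heyl further than Hey1 by 0.40 (SD 0.89) in 4 of 5 (exact p = 0.312). The last difference was 0.10 without embryo 2 and 0.69 without embryo 5.

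**Figure D2:**
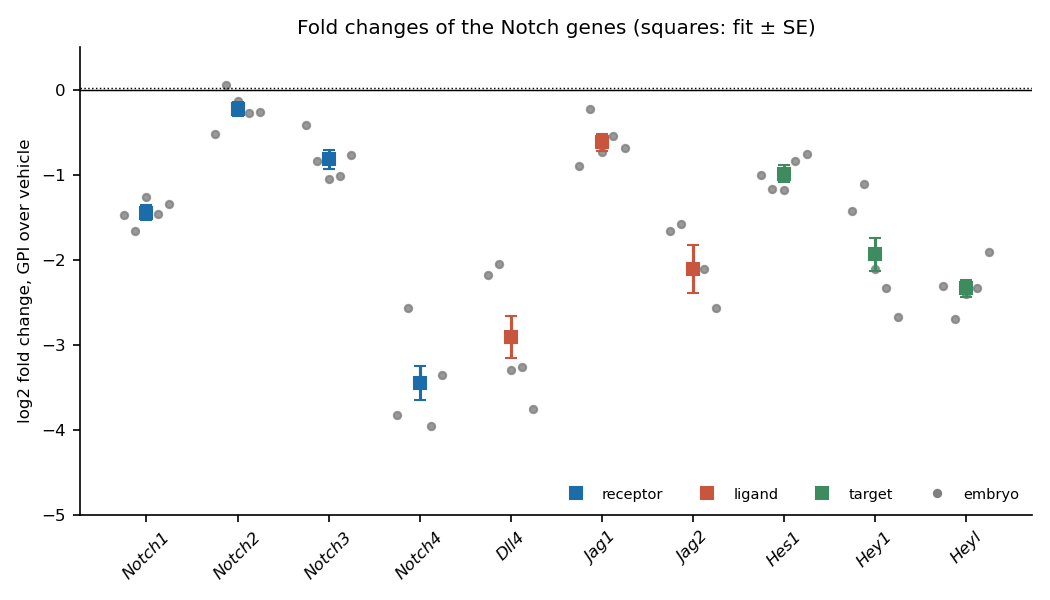
Log2 fold change of GPI over vehicle (vertical axis) for the 10 Notch genes, by role; squares with bars are the edgeR estimate and its SE, and grey points are the 5 embryos. Values run from -3.45 for Notch4 to -0.23 for Notch2, and 1 embryo of Notch2 lies above 0.

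To set the genes beside one another, counts were also expressed as FPKM, that is, scaled to the length of the longest transcript and to effective library size. On this scale, with vehicle, the levels were 36.9 ± 7.77 (SD, n = 5) for Heyl, 28.9 ± 3.51 for Hes1, 28.8 ± 8.48 for Hey1 and 25.3 ± 1.58 for Notch2, and the ranges of neighbors in this order overlapped. Jag1 followed at 9.93 ± 1.12, apart from both its neighbors in the order. Then came Notch1 at 6.70 ± 0.84, Dll4 at 5.89 ± 0.80, Notch3 at 4.68 ± 0.60 and Notch4 at 4.02 ± 0.30, each overlapping the next, and Jag2 was lowest at 1.11 ± 0.28. The order changed with GPI. Notch2 came first at 21.7 ± 2.94 FPKM, then Hes1 at 14.5 ± 1.36, and Hey1, Heyl and Jag1 overlapped at 7.41 ± 1.76, 7.26 ± 1.43 and 6.42 ± 0.42. Notch3 (2.68 ± 0.59) and Notch1 (2.44 ± 0.10) overlapped, as did Dll4 (0.80 ± 0.36), Notch4 (0.37 ± 0.16) and Jag2 (0.26 ± 0.12), each with its neighbor.

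Promoter sequences from RefSeq (GRCm38.p6) were matched for 7 of the 10 genes: the 4 receptors and the 3 ligands. Windows of 300 bases, 250 before and 50 after the start, are shown for the receptor and the ligand that fell furthest, Notch4 (chr17:34564045-34564344, plus strand) and Dll4 (chr2:119325534-119325833, plus strand), and for the receptor that was not called, Notch2 (chr3:98013288-98013587, plus strand). Capitals mark the letters of any motif searched.
Notch4: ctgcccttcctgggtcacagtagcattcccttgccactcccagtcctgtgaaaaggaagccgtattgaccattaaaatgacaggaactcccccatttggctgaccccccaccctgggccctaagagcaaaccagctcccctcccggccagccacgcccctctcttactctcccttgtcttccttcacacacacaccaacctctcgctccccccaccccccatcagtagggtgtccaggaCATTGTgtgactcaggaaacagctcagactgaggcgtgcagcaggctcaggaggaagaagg
Dll4: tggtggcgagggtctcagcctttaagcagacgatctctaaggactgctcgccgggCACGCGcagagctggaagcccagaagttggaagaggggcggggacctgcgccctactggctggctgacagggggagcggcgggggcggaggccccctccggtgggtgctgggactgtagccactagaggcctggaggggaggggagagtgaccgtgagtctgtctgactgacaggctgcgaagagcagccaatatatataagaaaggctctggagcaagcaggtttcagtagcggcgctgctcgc
Notch2: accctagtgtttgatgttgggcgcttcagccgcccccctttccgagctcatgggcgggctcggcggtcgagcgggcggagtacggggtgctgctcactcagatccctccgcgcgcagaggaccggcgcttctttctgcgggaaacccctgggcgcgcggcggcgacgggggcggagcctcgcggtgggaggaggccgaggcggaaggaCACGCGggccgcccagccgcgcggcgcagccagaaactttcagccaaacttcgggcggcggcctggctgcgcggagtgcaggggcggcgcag
The motifs, searched on both strands and chosen after the results were known, were TGGGAA for RBPJ, CCGGAA for ETS factors, AGATAA for GATA factors, ACAATG for SOX factors, CACGTG for the E-box of HEY and HES proteins and CACGCG for the class C site of HES proteins. Notch4 held ACAATG on the minus strand, at bases 240 to 245 of its window, and Dll4 and Notch2 held CACGCG, at bases 56 to 61 and 209 to 214. Across the 7 windows, CACGCG was found in 4 (Notch2, Dll4, Jag1 and Jag2), ACAATG in 2 (Notch4 and Jag1) and the other 4 motifs in 0. Of the 32851 promoters in the table, 9.3% held CACGCG, 12.6% ACAATG, 25.6% TGGGAA, 14.9% CCGGAA, 11.2% AGATAA and 7.2% CACGTG. GC content was 58.3% in the Notch4 window, with 5 CpG, 63.7% in Dll4, with 17, and 73.0% in Notch2, with 41, and the median promoter had 52.7% and 7. These letters describe the windows and say nothing of which factor binds there.

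A list of 55 other pathway genes was read from the same fit. Of the 49 that were tested, 9 were downregulated, 4 upregulated and 36 not called, where 11.9% and 11.1% of all tested genes were downregulated and upregulated, and their median log2 fold change was -0.06. The list was not tested against other genes, and the counts by role are a description. Among other target genes, 3 of the 4 tested fell. Nrarp, a feedback inhibitor of Notch, had 188.5 to 304 normalized counts with vehicle and 50.1 to 71.5 with GPI (log2 fold change -2.0, standard error 0.15, adjusted p = 5.81e-07). Hey2, an arterial HEY repressor, had 127 to 174 and 39.2 to 56.8 (-1.79, standard error 0.17, adjusted p = 5.58e-06), and Efnb2, an arterial ephrin ligand, 3170.2 to 4174.5 and 1219 to 2028 (-1.16, standard error 0.12, adjusted p = 1.25e-05). None of the 3 overlapped between groups.

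Of 8 genes of receptor modification and cleavage, 2 were downregulated and 6 not called. Mfng, a Fringe glycosyltransferase that tunes which ligands a receptor answers, had 52.0 to 99.0 normalized counts with vehicle and 2.2 to 16.8 with GPI (log2 fold change -3.57, standard error 0.44, adjusted p = 4.94e-05). Adam10, the protease of the first cut, went from 2672 ± 208 to 2264 ± 102 (SD, n = 5), a change of -0.24 (standard error 0.07, adjusted p = 0.0254) that was no longer called without embryo 3 (-0.25), 4 (-0.19) or 5 (-0.23). Of 7 gamma-secretase genes, 1 was upregulated: Aph1b, from 104 ± 8.0 to 144 ± 20.7, or 0.46 on the log2 scale (standard error 0.15, adjusted p = 0.0404). Its call was lost without any 1 of the 5 embryos (0.42 to 0.48), with DESeq2 (0.45), with total counts only (0.41) and with no low-count filter (0.45).

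In the nucleus, Rbpj, the DNA-binding partner of every receptor, had 1278 ± 60.7 normalized counts with vehicle and 1304 ± 72.4 with GPI (SD, n = 5; log2 fold change 0.03, standard error 0.07, adjusted p = 0.826). Of the 13 genes of the nuclear complex and its co-factors, the coactivator gene Maml3 alone was called, and lower (-0.42, standard error 0.12, adjusted p = 0.0168), and it was not called without embryo 2 (-0.29) or 3 (-0.43). Among 14 genes of ubiquitin ligases and trafficking, 2 fell and 3 rose. Neurl3 (-1.56, standard error 0.37) and Dtx3l (-0.66, standard error 0.21) were lower, the second not called without embryo 2 (-0.62), 3 (-0.77), 4 (-0.50) or 5 (-0.65), and Dtx3l overlaps Parp9 on the other strand. Dtx1, a Deltex ubiquitin ligase that is also a Notch target in lymphocytes, went the other way, from 91.6 ± 17.6 to 198 ± 42.5 normalized counts (1.10, standard error 0.20, adjusted p = 9.50e-04). Fbxw7, which marks the receptors' intracellular domain for destruction, rose by 0.53 on the log2 scale (standard error 0.10, adjusted p = 0.00114) and overlaps Fbxw7as1 on the other strand. Dtx4 rose as well (0.33, standard error 0.09, adjusted p = 0.0192), though not without the replicate block (0.34) or without embryo 2 (0.27) or 3 (0.27). Among other ligands, Dner was lower (-1.26, standard error 0.41, adjusted p = 0.0393), but not called without the block (-1.27) or without embryo 2 (-1.08), 4 (-1.41) or 5 (-0.97), and it overlaps Mir5126. Dll1 (11.5 ± 5.9 with vehicle and 11.4 ± 2.6 with GPI) and Dlk1 (850 ± 74.4 and 789.5 ± 171, SD, n = 5) were not called. Dll3, Dlk2, Hes2, Hes3, Hes5 and Hes7 were set aside by the filter on low counts, and Hes2 had 0 counts in all 10 libraries.

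**Figure D3:**
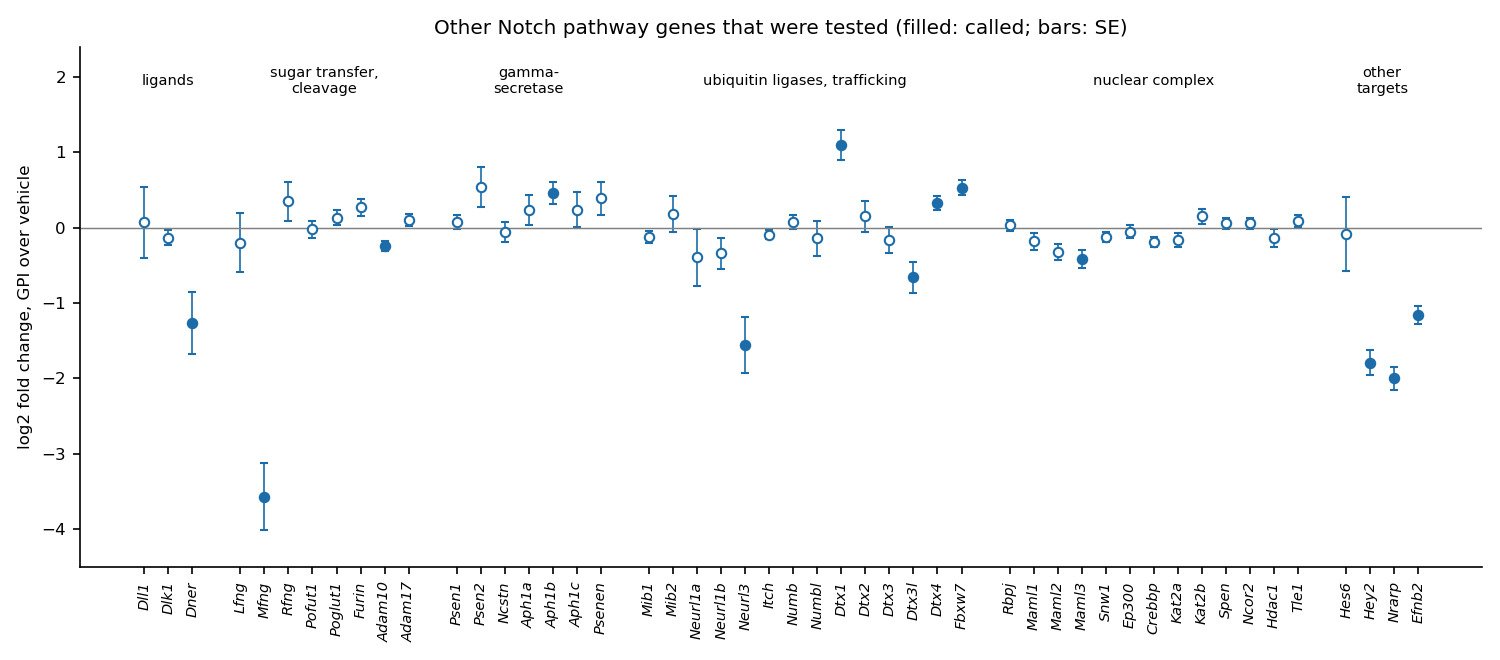
Log2 fold change of GPI over vehicle (vertical axis) with its SE for the 49 tested genes of the wider pathway, grouped by role; filled points were called. The 36 open points were not called, and Mfng (-3.57), Nrarp (-2.0) and Hey2 (-1.79) lie lowest.

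Endothelial markers and some mural markers were lower with GPI too. The marker lists, like the Notch genes, were chosen with earlier results of these data known. All 12 endothelial markers were downregulated, with a median log2 fold change of -3.15, with Cdh5 at -3.63 (standard error 0.12), Pecam1 at -4.16 and Kdr at -2.44. By counts, Cdh5 led the list with vehicle and Kdr with GPI. Their summed normalized counts were 9538, 9918.5, 9561, 10709 and 9961.5 in the vehicle testes of embryos 1 to 5 and 1240.1, 1487, 976, 776.5 and 901 with GPI. Every vehicle testis stood far above every GPI testis. Of 10 mural markers, 5 were downregulated, 4 not called and 1 not tested. The downregulated ones were Abcc9 (-3.93, standard error 0.10), Rgs5 (-4.32), Kcnj8 (-4.07), Pdgfrb (-1.55) and Cspg4 (-1.44). Those not called were the contractile gene Acta2 (-0.12, adjusted p = 0.508), Tagln (-0.09), Myh11 (-0.15) and Des (-0.43). The mural sums were 10133, 11057, 11193, 10733.5 and 9843 with vehicle and 3387, 3049, 3192, 2483 and 3007 with GPI, again without overlap. None of these markers was at 0 in all vehicle libraries. Abcc9 overlaps 5330439B14Rik, Cdh5 overlaps Gm29682, Tagln overlaps Pcsk7 and Des overlaps Gm15179, each on the other strand.

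Other cell types moved in both directions. Of 7 macrophage markers, 6 were downregulated; the sums, led in counts by Csf1r with vehicle and by Adgre1, which was not called, with GPI, were 609, 395, 362, 441 and 329 with vehicle and 198, 171, 138, 95.7 and 109 with GPI. Of 7 germ cell markers, 4 were downregulated and 2 not tested; the sums, led by Dazl with vehicle and by Ddx4 with GPI, were 973, 2037, 1231, 1691 and 644 with vehicle and 135, 118, 41.8, 44.2 and 110.1 with GPI. Both lists were apart between groups. Fetal Leydig markers went up, 5 of 6 with 1 not tested, and their sums, led by Hsd3b1 with vehicle and by Cyp11a1 with GPI, were 1304, 2834, 4133, 2042 and 5585 with vehicle and 10094, 10664, 16556, 18911.5 and 13743 with GPI. Sertoli markers were upregulated in 6 of 7, with sums, led by Aard in both groups, of 3026, 4722, 3524, 4436 and 4980.4 with vehicle and 3598, 6787, 7046, 8733.5 and 6714 with GPI. These last sums overlapped through embryo 1, whose GPI testis lay below 3 vehicle testes. Aard itself (0.54) was not called without the replicate block (0.62) or without embryo 3 (0.43). Interstitial progenitor markers were split, 3 lower, 2 higher and 2 not called, and their sums, led by Pdgfra in both groups, overlapped at 14417, 16614, 16092, 14207 and 15917 with vehicle and 16179.5, 17537, 16033, 14973.5 and 18413 with GPI. Tcf21, a lower one (-0.30), was not called without embryo 2 (-0.27), 3 (-0.26) or 4 (-0.29). The part of these cell types in the changes of the Notch genes was not tested.

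**Figure D4:**
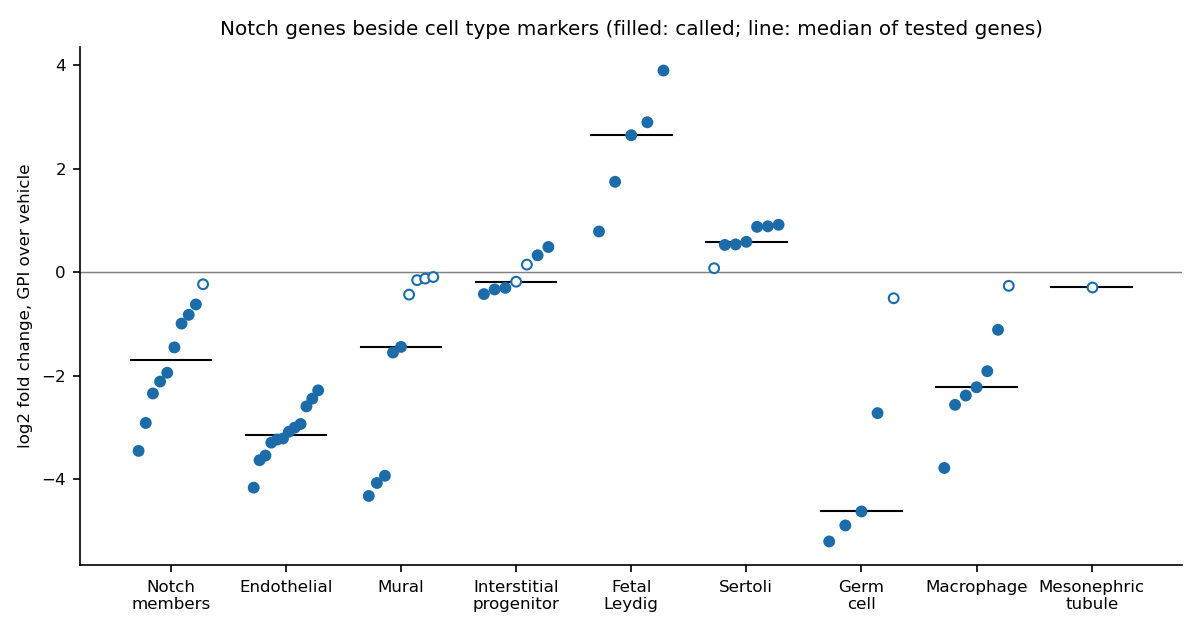
Log2 fold change of GPI over vehicle (vertical axis) for the tested Notch genes and the tested markers of 8 cell types (horizontal axis); each point is a gene, filled where called, and lines are medians. The Notch genes, with a median of -1.69, run from -3.45 to -0.23, and the endothelial markers have a median of -3.15.

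The Notch genes were then expressed relative to the summed counts of the endothelial markers in the same library. The change of this log2 ratio, GPI minus vehicle, was -0.28 for Notch4 (SD 0.44, n = 5 embryos; lower in 3 of 5, exact sign-flip p = 0.25) and 0.26 for Dll4 (SD 0.50; higher in 3 of 5, exact p = 0.312). In single embryos it ran from -1.01 to 0.12 for Notch4 and from -0.42 to 0.73 for Dll4, on both sides of 0, and without embryo 1 the means were -0.10 and 0.14. The other 8 genes stood higher relative to the endothelial markers with GPI in 5 of 5 embryos (exact p = 0.0625 each, the smallest possible). Their mean changes were 0.90 for Heyl, 1.09 for Jag2, 1.30 for Hey1, 1.80 for Notch1, 2.25 for Hes1, 2.42 for Notch3, 2.62 for Jag1 and 3.01 for Notch2. Heyl was near 0 in embryo 2 (0.03) and reached 1.55 in embryo 5 (SD 0.62).

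Relative to the summed mural markers, the changes lay on both sides of 0. Notch4 (-1.71, SD 0.59), Dll4 (-1.17, SD 0.77) and Heyl (-0.53, SD 0.29) stood lower with GPI in 5 of 5 embryos (exact sign-flip p = 0.0625 each). Notch1 (0.37, SD 0.23), Hes1 (0.82), Notch3 (0.99), Jag1 (1.19) and Notch2 (1.58) stood higher, also in 5 of 5 embryos. Embryos were divided for Jag2 (-0.34, SD 0.48; lower in 4 of 5, exact p = 0.25) and Hey1 (-0.13, SD 0.64; lower in 3 of 5, exact p = 0.625), and without embryo 5 their means were -0.14 and 0.09. With the mean of the markers' log2 values in place of their sum, Notch1 stood at 0.12 and Hey1 at -0.38. By counts, Abcc9 led the mural list with vehicle (5342 ± 347, SD, n = 5) and Acta2 with GPI (1048 ± 172, SD, n = 5), so the makeup of the sum differed between the groups.

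**Figure D5:**
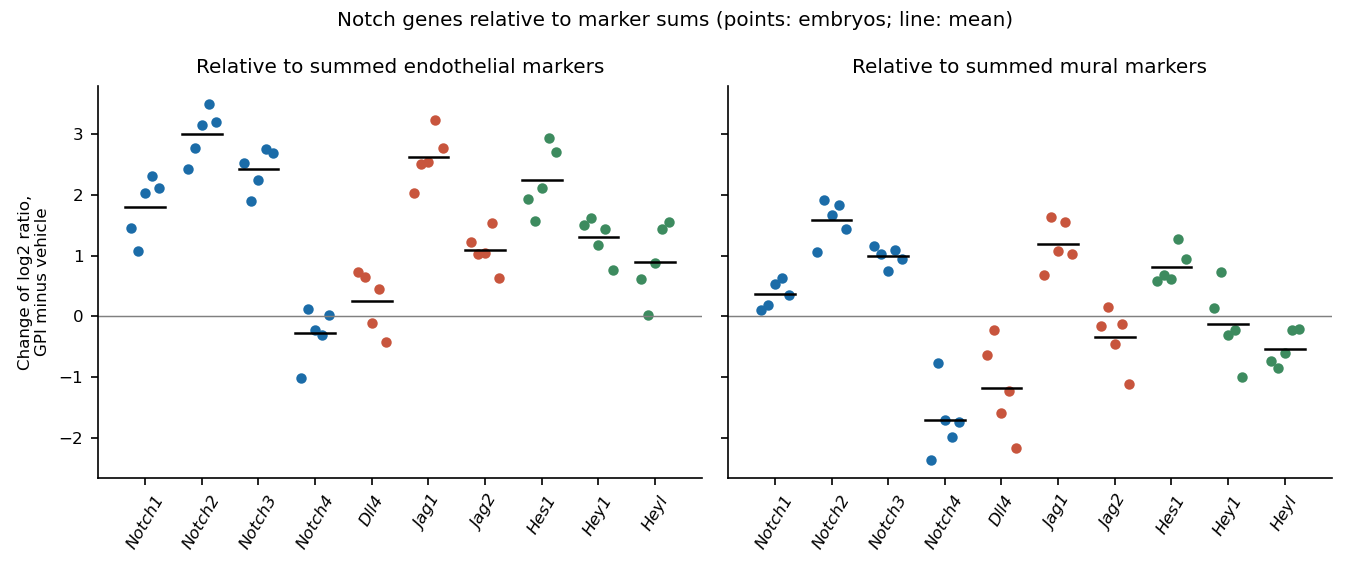
Change of the log2 ratio of each Notch gene to the summed endothelial (left) or mural (right) markers, GPI minus vehicle; points are the 5 embryos and lines their mean. Relative to the endothelial sum, Notch4 (-0.28) and Dll4 (0.26) lie around 0 and the other 8 genes above it.

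For each Notch gene, the nearest patterns were sought among 11105 tested genes whose mean count was 50 or more, as the smallest root mean square difference of centered log2 CPM over the 10 libraries. Nearest to Notch4 were Cd34 (0.173), Cdh5 (0.246) and Adgrl4 (0.277), and nearest to Dll4 were Cldn5 (0.198), Afap1l1 (0.209) and Erg (0.256), of which Cdh5, Cldn5 and Erg are in the endothelial list. Notch1 lay nearest to Rcsd1 (0.109), Lama4 (0.130) and Eogt (0.137), and Eogt encodes an enzyme that adds a sugar to Notch receptors. For Notch3 they were Fscn1 (0.116), Tns2 (0.125) and Emx2os (0.131), and for Notch2 Haus4 (0.073), Ubxn8 (0.087) and Zfp407 (0.089). These values are distances, so that a smaller one means a closer pattern. Each pattern includes the difference between the groups, so genes of like fold change lie close. For Notch1 (-1.45), Rcsd1, Lama4 and Eogt had log2 fold changes of -1.38, -1.28 and -1.52. Among the other ligands, Jag1 lay nearest to Igfbp4 (0.090), Btg1 (0.103) and Tln2 (0.113), and Jag2 to Csf1r (0.223), Nup210 (0.295) and Klf10 (0.314). Among the targets, Hes1 lay nearest to Dgka (0.094), Vim (0.123) and Asb4 (0.125), Hey1 to Nrarp (0.246), Sat1 (0.252) and Adap2 (0.287), and Heyl to Prkch (0.279), Rasip1 (0.283) and Lmo2 (0.292). The closest pair of all was Notch2 and Haus4. Neither was called (-0.23 and -0.28 on the log2 scale), and the distances were not scaled to a gene's spread. Cd34, Ubxn8 and Dgka overlap another entry on the other strand, and Tln2 and Csf1r a microRNA entry on the same strand.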

How the data were processed

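RNA of 10 cultured testes, 5 per treatment, was measured. Per the labels and the study's methods, the authors aligned the reads with STAR 2.5 to the mm10 build, counted pairs per RefSeq gene without regard to strand with featureCounts of Subread 1.5.0-p1, and deposited raw counts, which were used unchanged. The number of the animal in the labels pairs the gonads; correlations of deviations from the group means ran from -0.04 to 0.155 within an embryo (mean 0.06) and averaged -0.015 between embryos. No 2 libraries of a group agreed within sampling noise (chi-square per degree of freedom 6.42 to 27.81). The amplified libraries carried no molecular identifiers, so reads are not separate molecules and errors were taken between embryos.

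The main test was edgeR 4.0.16's quasi-likelihood test with embryo and treatment in the design, TMM scaling, filterByExpr (minimum count 10, minimum total 15; 10529 entries set aside) and Benjamini-Hochberg adjustment over 13941 genes at an FDR of 0.05. Each standard error was taken as the size of the log2 fold change over the square root of its F statistic. Log2 ratios per embryo used a prior count of 2. Lengths are those of the longest GENCODE M21 transcript. Differences between Notch genes, and ratios to summed markers, were tested over embryos by exact two-sided sign-flip permutation.

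Alternatives were DESeq2 1.42.0, limma-voom (limma 3.58.1), no low-count filter, scaling by total counts only, no replicate block, size factors of DESeq2, each embryo left out, and the mean of the markers' log2 values in place of their sum. The genes named were the 10 Notch genes, called genes of the pathway list and others where a role is described. Also named were the first 3 and the most abundant of each marker list, the other tested mural markers, and the 3 nearest patterns per Notch gene. The members and lists were chosen with earlier results of these data known. Other software was R 4.3.3, Python 3.11.15, matplotlib 3.10.9, pandas 2.3.3 and numpy 2.4.6, and the fit was tested on simulated data, where the share of false calls came out above the nominal FDR.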

Additional observations from a re-analysis of the deposited data

Results flagged for a closer look

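In 7 of 62 groups of 5 libraries, over the 10 Notch genes, the called pathway genes and the summed marker lists, 1 library lay far from the other 4; chance alone marks about 1 in 20 such groups. Notch3 had 566 normalized counts in the vehicle testis of embryo 2, against 411 to 454 in the other vehicle testes. For Notch4 the vehicle testis of embryo 3 had 368.5, against 309 to 323. Adam10 stood at 3034 in the vehicle testis of embryo 4, against 2539 to 2655, and Efnb2 at 4174.5 in the same testis, against 3170.2 to 3410.4. Maml3 had 915 in the vehicle testis of embryo 2, against 514 to 605. In the GPI testis of embryo 1, Dtx4 had 501, against 829 to 852 in the other GPI testes, and Fbxw7 1106, against 1447 to 1580.3. The calls of Notch3, Notch4, Efnb2 and Fbxw7 held without any 1 embryo; those of Adam10, Dtx4 and Maml3 did not.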

How the results depend on the processing

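Under DESeq2, limma-voom, no replicate block, 2 other scalings, no low-count filter and each embryo left out, the 9 downregulated Notch genes were called lower in every fit, and 0 were called higher. Their median log2 fold change, with Notch2, ran from -1.77 to -1.61 without 1 embryo and from -1.74 to -1.70 otherwise. Notch2 was called lower with DESeq2 (-0.24), limma-voom (-0.23), DESeq2 size factors (-0.24), total counts only (-0.28) and no low-count filter (-0.24); without 1 embryo it ran from -0.30 to -0.18, called without embryo 2 only. Over all 11 alternatives its adjusted p ran from 0.0146 to 0.154; the cause was not tested. The fit without the replicate block, which ignores the pairing, gave 1610 genes lower and 1498 higher, 9 Notch genes lower, a median of -1.71 and an adjusted p of 0.0826 for Notch2; it changed no call of a Notch gene. Without 1 embryo, upregulated genes numbered 969 to 1430, the lowest without embryo 3, with 1024 without embryo 4, and upregulated pathway genes 2 to 3, against 1544 and 4; fewer samples were fitted.

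Relative to summed mural markers, Hey1 ran from -0.35 to 0.09 without 1 embryo. The other 19 ratios to marker sums kept their sign without any 1 embryo, and all 20 kept it with the mean of the markers' log2 values, but the sizes of 5 moved by over 1.5 times. Relative to endothelial markers, Notch4 was -0.10 without embryo 1, and Dll4 was 0.14 without embryo 1, 0.16 without embryo 2, 0.43 without embryo 5 and 0.17 with the mean of log2 values. Relative to mural markers, Jag2 was -0.14 without embryo 5, Notch1 0.12 with the mean of log2 values, and Hey1 -0.38 with that mean, -0.20 without embryo 1 and -0.35 without embryo 2. The 12 differences within roles kept their sign, and that of Hey1 minus Heyl, 0.40, was 0.10 without embryo 2 and 0.69 without embryo 5. Amh, a Sertoli marker that was not called, turned from 0.08 to -0.12 without embryo 3 and -0.07 without embryo 4, within a range of -0.12 to 0.29. Of the 65 other genes followed under the alternatives, 54 kept their direction and call throughout. Rbpj, Acta2, Kcnj8, Tagln, Myh11, Des, Dll1 and Dlk1 were not among those followed. Jag2, with 8 to 26 counts per GPI library, is the Notch gene that depth limits most.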
